A study of Mus musculus with 18 samples.

Results

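The 47 genes described here carry out DNA replication and drive the cell cycle of mouse embryonic stem cells (ESCs). They were chosen by name from a table of 21995 genes and placed by known function in 7 roles: 11 licensing factors, 8 replication fork factors, 3 nucleotide synthesis enzymes, 5 genes of the G1/S switch, 5 genes of the cyclin D kinases, 11 mitotic genes and 4 inhibitors. The first 3 roles together are the 22 S phase genes. All 47 passed the filter on low counts, which kept 18352 genes. RNA-seq libraries came from 2 ESC lines, a parental line and a line labelled Oct1_cKO (conditional knockout, written cKO below) for Oct1, the transcription factor encoded by Pou2f1. Each line was sampled undifferentiated at day 0 and after 2 and 6 days of differentiation in 1.5 ug/ml retinoic acid on 0.01% gelatin, which gave 6 groups of 3 libraries. The labels give no strain, passage or clone number for either line, and they do not name the deleted exon or how deletion was induced.

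Replication origins are licensed in G1, when the origin recognition complex (Orc1, Orc2, Orc6) with Cdc6 and Cdt1 loads the MCM2-7 helicase on DNA. S phase starts when CDK2 with cyclin E, and in many cells CDK4 or CDK6 with a D cyclin, phosphorylates the retinoblastoma protein and frees E2F factors, after which Cdc45 and GINS turn MCM2-7 into the active helicase at the fork. Naive mouse ESCs are known for a short G1 and for little dependence on D cyclins, and G1 lengthens as they differentiate, when inhibitors such as p27 (Cdkn1b) accumulate.

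Promoters of S phase genes often carry E2F sites, and promoters of genes that peak in G2 and mitosis often carry the CHR element with CCAAT boxes, so stretches upstream of 3 replication genes and 3 mitotic genes are shown to place these letters beside the expression values. All are RefSeq promoter windows on GRCm38.p6, read 5′ to 3′ on the gene's own strand, trimmed to bases outside annotated exons. Capitals mark E2F matches in the first 3 and CHR matches in the last 3. Mcm5 is at chr8:75109349-75109508 (+), Mcm6 at chr1:128359706-128359865 (-) and Pola1 at chrX:93632156-93632315 (-), each from base -160 to base -1 before the RefSeq start. Cdk1 is at chr10:69352940-69353062 (-, bases -150 to -28), Cdc20 at chr4:118437354-118437493 (-, bases -150 to -11) and Top2a at chr11:99024190-99024349 (-, bases -160 to -1).
Mcm5: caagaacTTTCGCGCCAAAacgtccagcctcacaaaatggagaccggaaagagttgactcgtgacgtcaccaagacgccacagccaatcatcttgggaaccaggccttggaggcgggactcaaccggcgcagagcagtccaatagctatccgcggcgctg
Mcm6: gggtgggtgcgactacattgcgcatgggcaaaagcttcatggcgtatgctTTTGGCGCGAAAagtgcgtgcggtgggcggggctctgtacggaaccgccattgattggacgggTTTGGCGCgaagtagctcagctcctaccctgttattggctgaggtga
Pola1: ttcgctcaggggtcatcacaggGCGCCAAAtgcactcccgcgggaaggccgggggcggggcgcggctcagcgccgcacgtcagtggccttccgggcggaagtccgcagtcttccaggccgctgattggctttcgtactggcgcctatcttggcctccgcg
Cdk1: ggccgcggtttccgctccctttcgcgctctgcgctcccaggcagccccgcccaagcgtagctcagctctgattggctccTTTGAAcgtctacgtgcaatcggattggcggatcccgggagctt
Cdc20: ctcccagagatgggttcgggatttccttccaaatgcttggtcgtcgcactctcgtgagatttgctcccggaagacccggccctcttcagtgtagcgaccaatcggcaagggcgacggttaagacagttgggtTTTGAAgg
Top2a: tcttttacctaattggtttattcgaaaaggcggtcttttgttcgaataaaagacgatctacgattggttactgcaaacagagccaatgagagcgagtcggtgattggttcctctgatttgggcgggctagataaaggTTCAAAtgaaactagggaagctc

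Windows of 250 bases before to 50 bases after the start were at hand for 37 of the 47 genes (42 windows). Each was searched on both strands for the E2F letters TTTCCCGC, TTTCGCGC, TTTGCCGC and TTTGGCGC, which can overlap one another on opposite strands, as in the Mcm5 and Mcm6 stretches. An E2F match was present in 9 of 18 S phase genes, 7 of them among the 10 licensing genes (Cdc6, Cdt1, Mcm3, Mcm5, Mcm6, Mcm7 and Orc1), and in 1 of 9 mitotic genes, Cdk1, against 2.6% of 27025 genes in the same table. The CHR letters TTTGAA were present in 7 of 9 mitotic genes (Aurka, Ccnb2, Cdc20, Cdk1, Mki67, Plk1 and Top2a) and in 3 of 18 S phase genes, against 20.2% of all genes. CCAAT was present in 9 of 9 mitotic and 15 of 18 S phase genes, against 41.1%. The octamer ATGCAAAT, the classical Oct1 recognition sequence, had no match in the windows of these 37 genes and matched 1.97% of all genes. These matches describe letters in these windows and were not related to binding.

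Library totals ran from 13694126 to 19296966 counts. Pou2f1 was lower in the cKO line at each day, with mean levels of 79.3 against 129 CPM at day 0, 59.7 against 103 at day 2 and 41.9 against 63.4 at day 6 (CPM, counts per 1000000 of the TMM-scaled library size, each n = 3). Counts outside a deleted exon would remain, so this does not measure the deletion. The third cKO day 0 library stood apart from its group: the chi-square per degree of freedom of its counts was 10.8 and 10.4 against the other 2, which differed from each other by 1.22. Cell type markers moved with group. The summed level of 8 pluripotency genes was 6850 to 6990 CPM in parental and 7940 to 8820 in cKO libraries at day 0, 1170 to 1230 and 2670 to 2810 at day 2, and 50.8 to 55.8 and 195 to 197 at day 6. The 10 fibroblast markers summed to 1180 to 1240 CPM in parental and 366 to 380 in cKO libraries at day 0, 208 to 224 and 123 to 154 at day 2, and 4020 to 4320 and 494 to 595 at day 6. The 7 neuron markers in the table summed to 351 to 359 and 391 to 456 CPM at day 0, 57 to 61.9 and 147 to 160 at day 2, and 211 to 218 and 33.2 to 40.2 at day 6, in the same order of lines, and the 6 endothelial markers to 300 to 309 and 134 to 146, 76.8 to 84.8 and 119 to 126, and 320 to 335 and 297 to 319. All lists had counts in every group except Emcn, an endothelial marker at 0 in the cKO line at day 0. The genes of a list did not all move together. At day 6 Kdr was 226 CPM in the parental and 12.9 in the cKO line, and Cdh5 90.2 and 277. By edgeR (adjusted p under 0.05), the cKO line then had 4 endothelial markers higher and 1 lower, and 2 and 4 neuron markers. It had 1 and 8 fibroblast markers and 6 and 1 pluripotency markers (all genes 36.7% and 37.8%). Pecam1 (277 CPM) and Stmn2 (271 CPM) made most of the parental day 0 endothelial and neuron sums. The part of other cell types in the results below was not tested, and in bulk RNA fewer cells of a type and less RNA per cell cannot be told apart.

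Most S phase genes fell on differentiation in both lines. Mitotic genes were mixed at day 2 in the parental line and mostly higher in the cKO line, and most were lower by day 6. The 4 inhibitors rose by day 2 in both lines, although the call of Cdkn2b in the cKO line was lost in most alternatives. By edgeR's quasi-likelihood test (called at an adjusted p under 0.05 over all genes), 33 of 47 genes were lower and 8 higher at day 2 against day 0 in the parental line, where 37.7% of all genes were called lower and 43.2% higher. The cKO line had 32 lower and 11 higher, against 35.5% and 41% of all genes. By day 6 the counts were 38 lower and 7 higher in the parental line (all genes 40.2% and 45.3%, 85.5% called in all) and 40 lower and 6 higher in the cKO line (all genes 40.4% and 41.4%). The median log2 change of the 47 genes was -0.62 and -0.97 in the parental line and -0.44 and -1.11 in the cKO line at days 2 and 6, while that of all genes lay between 0.00 and 0.08. Groups did not overlap for 43 and 45 genes in the parental line and for 41 and 45 in the cKO line, against 82.8%, 87.1%, 76.2% and 81.2% of all genes.

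**Figure D1:**
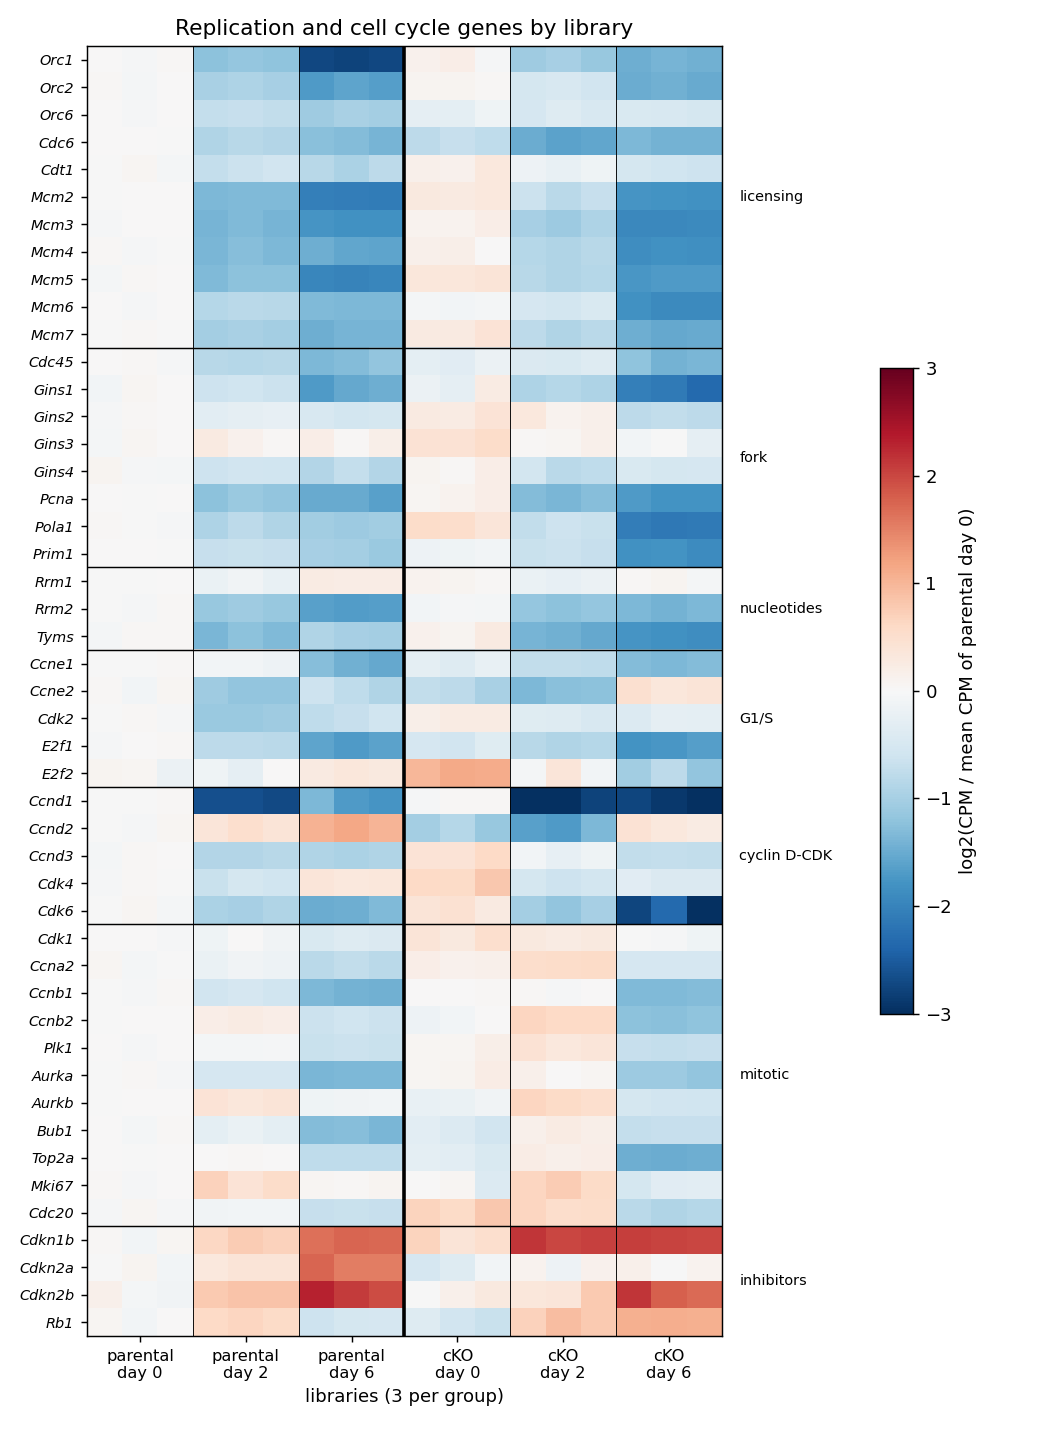
Each row is a gene, each column a library, and colour is log2 of its CPM over the mean CPM of the 3 parental day 0 libraries, limited to -3 and 3. Most S phase rows turn blue from day 2 in both lines, with Gins2, Gins3 and Rrm1 among the exceptions. The mitotic rows are redder at day 2 in the cKO line than in the parental line, and Cdkn1b and Cdkn2b turn red in both lines by day 6.

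Between the lines, 22 of the 47 genes were higher and 13 lower in the cKO line at day 0, where 26.4% of all genes were called higher and 27% lower. At day 2, 27 were higher and 9 lower (all genes 33.7% and 33.6%), and at day 6, 17 were higher and 23 lower (36.7% and 37.8%, 74.5% in all). The change from day 0 differed between the lines for 33 genes at day 2 (57% of all genes) and 36 at day 6 (63.9%), in tests that share the day 0 libraries. With library sizes alone as the scaling, the median of all genes moved from -0.01 to -0.20 at day 2 and from 0.00 to -0.19 at day 6, and the split became 20 higher and 18 lower at day 2 and 7 and 29 at day 6. Over all genes that scaling gave 4263 higher and 8187 lower calls at day 2 (34.2% higher, against 50.1%) and 5241 and 8414 at day 6 (38.4% against 49.3%). That scaling ended the calls of Aurkb, Pola1, Rb1 and Orc6 at day 2, the largest being Orc6 (0.26, to 0.07). It also ended those of Orc1, Mcm7 and Top2a, which changed sign (-0.06, -0.02 and -0.04). At day 6 it ended those of Aurka, Mcm5, Cdt1, Rrm2, Ccna2, Mcm2, Cdkn1b and Gins4, the largest being Gins4 (0.34, to 0.13). Orc2 and Ccnd3 also lost their day 6 calls and changed sign (-0.04 and -0.01). With DESeq2 size factors the median of all genes was -0.05 at day 2 and 0.06 at day 6. Groups did not overlap for 36, 38 and 41 of the 47 genes at days 0, 2 and 6, against 57.6%, 71% and 76.8% of all genes. The size of genotype differences of the 47 genes was mostly small. At least a 2-fold change was called for 1 higher and 1 lower gene at each of days 0 and 2, and for 3 higher and 5 lower genes at day 6. At that cut, 1125 of all 18352 genes were higher and 1208 lower at day 0. The counts over all genes were 1216 and 2543 at day 2 and 2865 and 3734 at day 6.

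**Figure D2:**
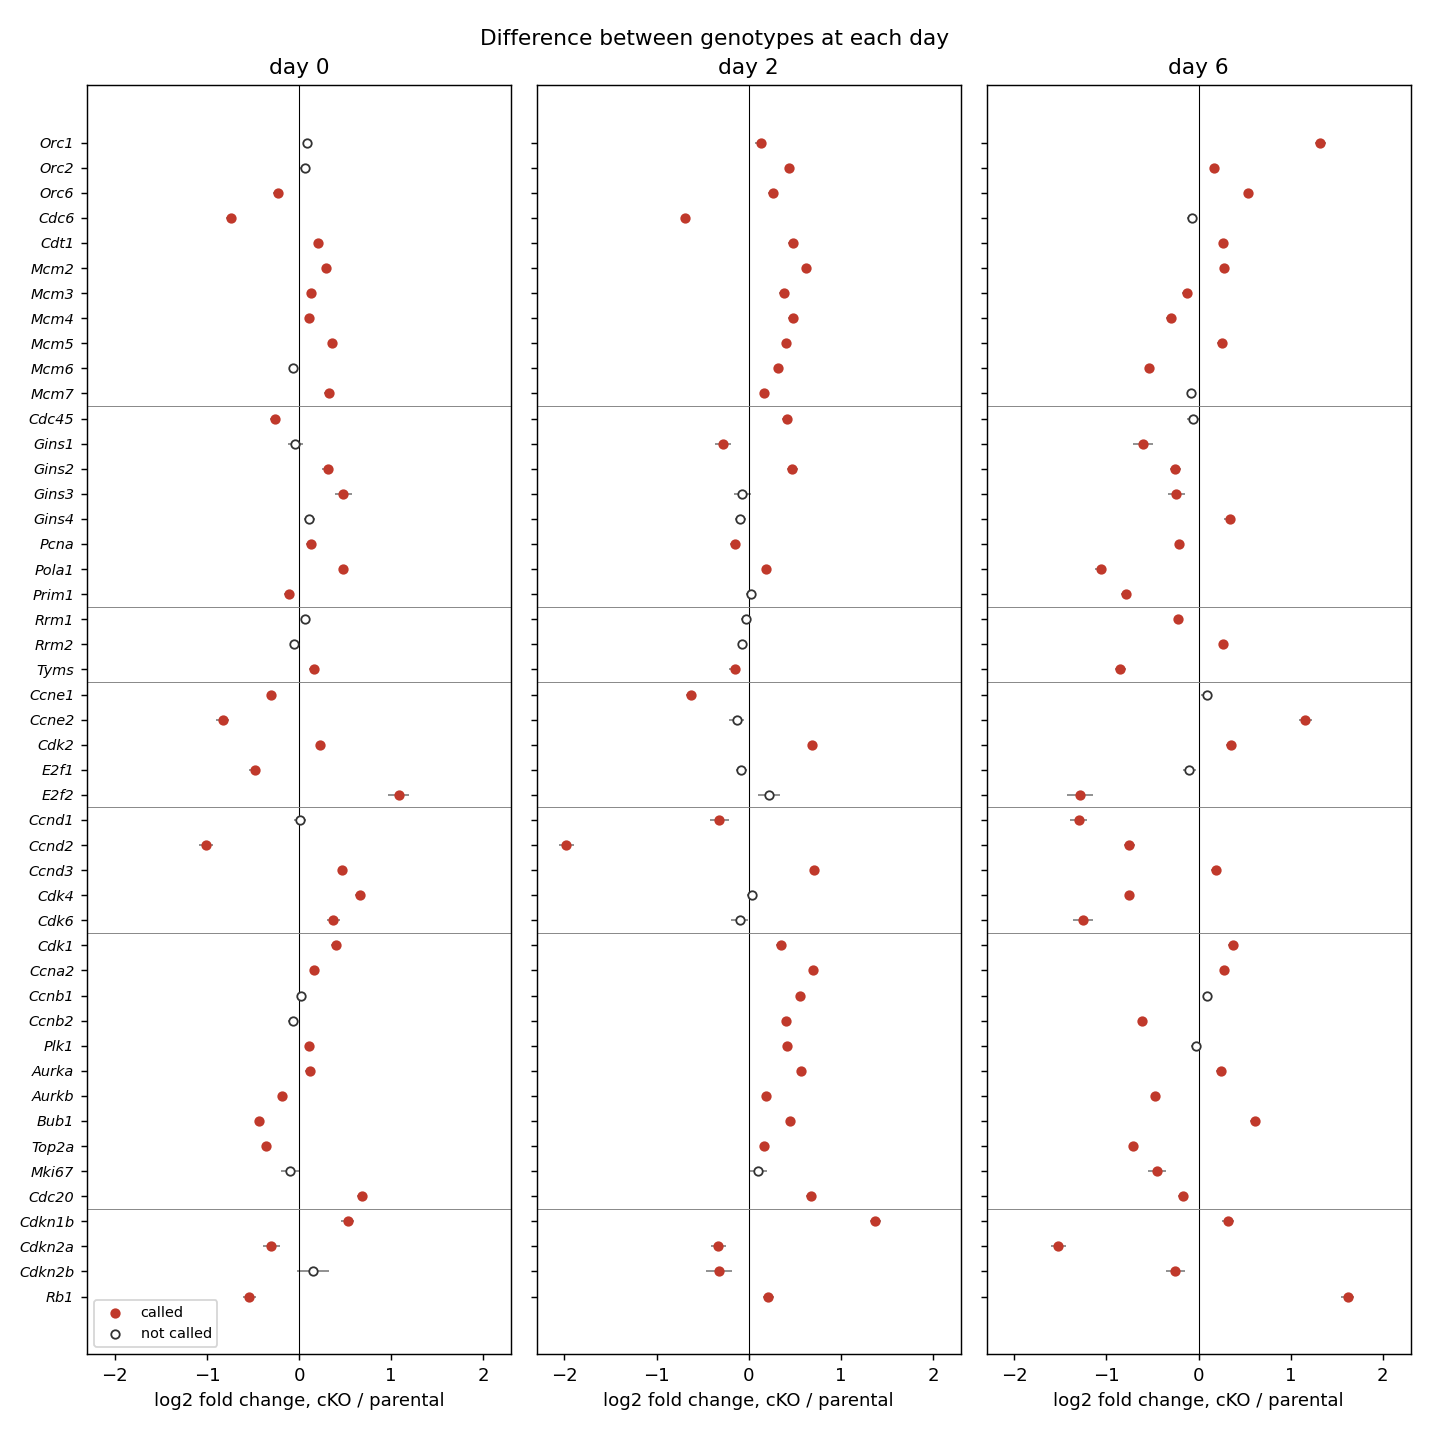
Points are log2 fold changes of the cKO line over the parental line at days 0, 2 and 6, bars are the standard error, and filled points were called by edgeR. Ccnd2 is lowest at days 0 and 2 (-1.01 and -1.98), and Rb1 and Orc1 are highest at day 6 (1.62 and 1.32). At day 2, 10 of 11 mitotic genes are called higher (8 to 10 over the alternatives), against 33.7% of all genes.

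All 11 licensing genes were called lower at days 2 and 6 than at day 0 in both lines. Of all genes, 37.7% and 40.2% were called lower in the parental line and 35.5% and 40.4% in the cKO line. The 6 MCM genes, which encode the ring of the helicase, fell by a median log2 of -1.30 at day 2 and -1.67 at day 6 in the parental line and -1.07 and -2.01 in the cKO line. Mcm2 in parental libraries was 554, 568 and 564 CPM at day 0, 222, 224 and 223 at day 2 and 136, 134 and 131 at day 6. Mcm2 in cKO libraries was 687, 682 and 695 CPM at day 0, 362, 320 and 348 at day 2 and 164, 163 and 159 at day 6. The groups followed the same order in both lines, with no overlap between days. Mcm2 was higher in the cKO line at each day, by a log2 fold change of 0.29 ± 0.04 (SE, adjusted p = 3.67e-07), 0.62 ± 0.04 (3.15e-15) and 0.28 ± 0.05 (9.15e-07), and the last was not called with library sizes alone. At day 2 all 6 MCM genes were called higher in the cKO line, from 0.17 for Mcm7 to 0.62 for Mcm2 (all genes 33.7%). The sign of Mcm7 turned to -0.02 with library sizes alone.

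Mcm6 parted from Mcm2 by day 6. Mcm6 in parental libraries was 598, 584 and 601 CPM at day 0, 328, 338 and 335 at day 2 and 236, 233 and 235 at day 6. Mcm6 in cKO libraries was 570, 562 and 567 CPM at day 0, 418, 405 and 430 at day 2 and 168, 159 and 158 at day 6. Its 3 cKO libraries were above the parental ones at day 2 and below them at day 6, where the difference was -0.54 ± 0.04 (adjusted p = 4.09e-14). The change by day 6 was larger in the cKO line for Mcm6 (genotype by day difference -0.47 ± 0.06, adjusted p = 1.06e-08), Mcm4 (-0.41), Mcm7 (-0.39) and Mcm3 (-0.26), and was not called as different for Mcm2 (-0.01) and Mcm5 (-0.10). Per kilobase of exon, the sum of the 6 MCM genes went from 744 ± 5.31 to 329 ± 7.22 and 237 ± 2.92 CPM in the parental line and from 848 ± 12.3 to 427 ± 15.7 and 217 ± 1.73 CPM in the cKO line (mean ± SD, n = 3). The ratio of the highest to the lowest of the 6 widened from 1.89 to 2.62 in the parental line by day 6 and was 1.69 and 1.83 at days 0 and 6 in the cKO line. Mcm2 was the lowest of the 6 in every group and has the longest exon length (6956 bases). The size of this ratio therefore depends on annotated length.

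Orc1, the largest subunit of the origin recognition complex, had the largest day 6 difference between lines among the licensing genes. Orc1 in parental libraries was 115, 113 and 117 CPM at day 0, 48.7, 51.6 and 49.6 at day 2 and 17.4, 16.9 and 17.2 at day 6. Orc1 in cKO libraries was 125, 131 and 113 CPM at day 0, 54.6, 57.4 and 52.5 at day 2 and 41.9, 43.9 and 42.2 at day 6. The lines overlapped at day 0 and were apart at day 6, with the cKO level higher by 1.32 ± 0.06 (adjusted p = 1.32e-20). The fall by day 6 was -2.75 in the parental line and -1.52 in the cKO line, a difference of 1.22 ± 0.08 (adjusted p = 5.45e-16). Orc6 followed the same direction, falling by -1.03 in the parental line and -0.25 in the cKO line (difference 0.78 ± 0.07), whereas Orc2 fell by -1.65 and -1.55 (difference 0.10, not called). Orc6 started lower in the cKO line, at a mean of 113 CPM against 133 in the parental line at day 0. On the opposite strand, Orc2 shares 29.8% of its exon length with Nif3l1, Orc1 10.8% with Gm12743 and Orc6 6.93% with Vps35.

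Cdc6 recruits Cdt1 and the helicase to the origin. It was the only licensing gene called lower in the cKO line at both days 0 and 2. Cdc6 in parental libraries was 150, 151 and 149 CPM at day 0, 80.9, 84.6 and 82 at day 2 and 62.4, 60.7 and 57 at day 6. Cdc6 in cKO libraries was 87.6, 92.5 and 88.8 CPM at day 0, 53.8, 49.1 and 50.7 at day 2 and 59.3, 56.1 and 55.8 at day 6. The cKO libraries lay below all parental ones at days 0 and 2, by -0.74 ± 0.05 (adjusted p = 9.08e-16) and -0.69 ± 0.05 (1.46e-14), and the groups overlapped at day 6 (-0.07). Its partner Cdt1 was higher in the cKO line at each day, by 0.21, 0.48 and 0.27, the last not called with library sizes alone. Cdc6 is 1 of 3 of the 47 genes on chromosome 11, with Aurkb and Top2a. The 1452 tested genes of that chromosome had a median genotype difference of -0.36, -0.43 and -0.42 at days 0, 2 and 6, whereas the medians of the other autosomes lay between -0.05 and 0.13, and the part of this shift in the values of these 3 genes was not tested.

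At the fork, Pola1 and Prim1, the catalytic subunits that lay down primers, and the sliding clamp Pcna fell in both lines. Pola1 in parental libraries was 125, 121 and 118 CPM at day 0, 63.6, 70.8 and 64.8 at day 2 and 59.2, 57.1 and 59.2 at day 6. Pola1 in cKO libraries was 178, 174 and 155 CPM at day 0, 73, 78.7 and 75.8 at day 2 and 28.8, 27.3 and 28.1 at day 6. The cKO libraries were above the parental ones at days 0 and 2 and below them at day 6. The day 6 difference was -1.06 ± 0.06 (adjusted p = 2.44e-18), and the fall from day 0 was -1.05 in the parental line and -2.59 in the cKO line (difference -1.54 ± 0.08, adjusted p = 2.8e-19). Prim1 also fell more in the cKO line by day 6, by -1.03 in the parental and -1.71 in the cKO line (difference -0.68 ± 0.07), with 55.6, 54.6 and 51.4 CPM in parental and 31.5, 31.9 and 30 CPM in cKO libraries at day 6. Pcna fell by -1.17 and -1.55 in the parental line and by -1.44 and -1.89 in the cKO line at days 2 and 6.

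Cdc45 and the 4 GINS subunits, which complete the active helicase, changed less evenly. Cdc45 fell by -0.84 in the parental line and -0.16 in the cKO line at day 2 (difference 0.68 ± 0.08, adjusted p = 1.01e-09), and by -1.28 and -1.07 at day 6. Its parental libraries read 102, 103 and 98.6 CPM at day 0 and 56.7, 56.3 and 56.6 at day 2, and its cKO libraries 83.1, 80.4 and 88.9, then 75.4, 73.5 and 77. The groups were apart in each case, and the cKO fall at day 2 was not called with library sizes alone. Gins1 fell the furthest of the GINS genes by day 6, by -1.57 in the parental and -2.13 in the cKO line. Gins3 was not called in the parental line (0.15 and 0.13) and fell in the cKO line (-0.40 and -0.59), with a difference of -0.55 ± 0.13 at day 2 and -0.72 ± 0.13 at day 6. Per kilobase, Gins4 made 49.7% ± 2.28 of the summed GINS level in the parental line and 49.9% ± 1.84 in the cKO line at day 0, and 52.9% ± 2.15 and 65.2% ± 1.43 at day 6. The 4 subunits are known to form a complex in equal numbers. These shares depend on annotated exon length, shortest for Gins4 (1349 bases) and longest for Gins2 (4097 bases). Before division by length, parental day 0 means were 71.2 CPM for Gins4, 53.6 for Gins1, 54.8 for Gins2 and 12.6 for Gins3. Of the Gins2 exon length, 67.3% is shared with Gse1 on the opposite strand, so its level is uncertain without strand.

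The enzymes of nucleotide synthesis split. Rrm2, the regulated subunit of ribonucleotide reductase, fell by -1.12 and -1.65 in the parental line and -1.13 and -1.32 in the cKO line, while Rrm1, its stable partner, changed by -0.18 and 0.23 and by -0.28 and -0.06 (the last not called, and the parental day 2 value 0.15 with library sizes alone). Rrm2 was 0.27 ± 0.04 higher in the cKO line at day 6, a difference not called with library sizes alone. Tyms in parental libraries was 108, 115 and 116 CPM at day 0, 43.7, 47.8 and 45.3 at day 2 and 60.3, 57 and 55.8 at day 6. Tyms in cKO libraries was 123, 119 and 136 CPM at day 0, 42.8, 41.6 and 39.2 at day 2 and 33.1, 32 and 31.1 at day 6. Tyms makes thymidylate. Its groups in the 2 lines did not overlap at day 6, where the cKO level was lower by -0.85 ± 0.06 (adjusted p = 1.6e-15), and in the parental line day 6 lay above day 2 in all libraries. Tyms has 1 annotated pseudogene under its own name and Pcna has 2, which could take or lend reads. Copies annotated under other names were not counted for any gene.

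Of the 5 G1/S switch genes, 4 fell and 1 rose by day 6 in each line (all genes 40.2% lower and 45.3% higher in the parental, 40.4% and 41.4% in the cKO line). The gene that rose was E2f2 in the parental and Ccne2 in the cKO line. The E2f2 call (0.30, adjusted p = 0.0168 by edgeR) was lost without parental day 0 replicate 3 (0.23) or parental day 6 replicates 1 (0.24), 2 (0.20) or 3 (0.23). It was also lost with DESeq2 size factors (0.24), TMM without chromosome 11 (0.23), no filter on low counts (0.22), DESeq2 (0.25) and a fit of the groups compared (0.22). Ccne2 in parental libraries was 45.3, 41.7 and 46.2 CPM at day 0, 21.2, 19.7 and 19.4 at day 2 and 28.8, 26.2 and 23.7 at day 6. Ccne2 in cKO libraries was 26.6, 25.6 and 22.6 CPM at day 0, 17.4, 18.7 and 19 at day 2 and 62.4, 56.1 and 58.3 at day 6. Ccne2 encodes cyclin E2. It fell in both lines by day 2, and by day 6 the 3 cKO libraries were above every other library of either line. The change by day 6 was -0.75 in the parental line and 1.24 in the cKO line (difference 2.0 ± 0.10, adjusted p = 9.65e-20), and the line difference went from -0.83 ± 0.07 at day 0 to 1.16 ± 0.07 at day 6. Ccne1 fell in both lines to 53.4, 47.8 and 45.1 CPM in parental and 52.8, 50.6 and 52.8 CPM in cKO libraries at day 6, overlapping groups. In the cKO line Ccne1 was lower by -0.30 ± 0.05 at day 0 and -0.63 ± 0.05 at day 2. Per kilobase, Ccne2 made 20.6% ± 0.689 of the summed E cyclin level in the parental and 15.3% ± 1.65 in the cKO line at day 0, and 29.1% ± 0.453 and 46.3% ± 0.943 at day 6. Ccne2 shares 17.4% of its exon length with Ints8 on the opposite strand.

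E2f2, an activating E2F, moved the other way. E2f2 in parental libraries was 7.31, 7.2 and 6.14 CPM at day 0, 6.33, 5.75 and 6.92 at day 2 and 8.3, 8.77 and 8.46 at day 6. E2f2 in cKO libraries was 13.8, 15.1 and 14.9 CPM at day 0, 6.65, 8.86 and 6.55 at day 2 and 3.33, 3.99 and 3.05 at day 6. It was higher in all cKO libraries at day 0 (1.08 ± 0.11, adjusted p = 2.27e-10), overlapped at day 2 and was lower in all of them at day 6 (-1.29 ± 0.14, adjusted p = 5.29e-11). These are low levels, at most 15.1 CPM. E2f1 fell in both lines, by -0.79 and -1.63 in the parental and -0.39 and -1.25 in the cKO line, and was -0.48 ± 0.06 lower in the cKO line at day 0. Cdk2, the kinase partner of E cyclins, fell by -1.09 and -0.68 in the parental and by -0.63 and -0.56 in the cKO line, and was higher in the cKO line by 0.23, 0.69 ± 0.05 and 0.35 at days 0, 2 and 6.

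Among the D cyclins, Ccnd1 fell by day 2 in both lines, Ccnd2 was lower in the cKO line throughout and Ccnd3 was higher there. Ccnd1 in parental libraries was 78.1, 77.7 and 79.9 CPM at day 0, 12.7, 12.6 and 12.1 at day 2 and 31, 24.2 and 23.2 at day 6. Ccnd1 in cKO libraries was 76.9, 80.3 and 80 CPM at day 0, 9.37, 9.33 and 11.4 at day 2 and 11.7, 10.5 and 9.59 at day 6. It fell by -2.65 ± 0.08 (adjusted p = 2.19e-27) and -2.98 ± 0.09 (1.13e-27) by day 2. The parental libraries at day 6 lay above those at day 2, the cKO groups of days 2 and 6 overlapped, and at day 6 the cKO level was lower by -1.30 ± 0.09 (adjusted p = 1.5e-15). Of its exon length 23.4% is shared with LTO1 on the opposite strand.

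Ccnd2 gave the largest genotype difference of the 47 genes at day 2. Ccnd2 in parental libraries was 46.3, 45.1 and 48.2 CPM at day 0, 60.2, 66.4 and 61.3 at day 2 and 96.3, 104 and 93.7 at day 6. Ccnd2 in cKO libraries was 22.8, 25.7 and 21.1 CPM at day 0, 15, 14.3 and 18.4 at day 2 and 62.6, 57.5 and 55.1 at day 6. No cKO library reached the level of the parental libraries of its day, and the difference was -1.01 ± 0.08 (adjusted p = 1.08e-13), -1.98 ± 0.08 (9.44e-23) and -0.75 ± 0.06 (2.39e-13). At day 2 it rose in the parental line (0.43) and fell in the cKO line (-0.54), a difference of -0.97 ± 0.11 (adjusted p = 2.19e-09). By day 6 it rose in both, by 1.08 and 1.34.

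Ccnd3 showed the reverse order of lines. Ccnd3 in parental libraries was 214, 229 and 225 CPM at day 0, 121, 121 and 125 at day 2 and 120, 115 and 119 at day 6. Ccnd3 in cKO libraries was 294, 296 and 335 CPM at day 0, 209, 187 and 203 at day 2 and 134, 136 and 134 at day 6. Its cKO libraries were above the parental ones at each day, by 0.47 ± 0.05 (adjusted p = 2.03e-10), 0.71 ± 0.05 (3.29e-15) and 0.19 ± 0.05 (0.00101), the last turning to -0.01 with library sizes alone. Per kilobase, Ccnd3 made the largest part of the D cyclin message in every group: 54% ± 0.97 in the parental and 64.5% ± 1.79 in the cKO line at day 0, 59.9% ± 1.22 and 85.6% ± 1.44 at day 2, and 45.7% ± 1.64 and 64.5% ± 1.76 at day 6. The share of Ccnd2 was 28.6% ± 1.17 in the parental and 6.36% ± 0.688 in the cKO line at day 2. The summed level of the 3 D cyclins per kilobase went from 47 ± 0.979 to 23.2 ± 0.351 CPM in the parental line at day 2 and from 54.4 ± 2.69 to 26.6 ± 1.52 CPM in the cKO line.

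The kinases of the D cyclins diverged at day 6. Cdk4 in parental libraries was 427, 446 and 431 CPM at day 0, 272, 302 and 287 at day 2 and 561, 545 and 552 at day 6. Cdk4 in cKO libraries was 658, 649 and 757 CPM at day 0, 300, 283 and 296 at day 2 and 346, 323 and 320 at day 6. Cdk4 was higher in all cKO libraries at day 0 (0.66 ± 0.05, adjusted p = 7.62e-14), overlapped at day 2 and was lower in all of them at day 6 (-0.75 ± 0.05, 3.5e-16). It rose by 0.35 in the parental line and fell by -1.06 in the cKO line (difference -1.41 ± 0.07, adjusted p = 1.32e-19). Cdk6 fell by -1.43 in the parental line and -3.05 ± 0.10 in the cKO line by day 6 (difference -1.62 ± 0.13), to 16.2, 16.3 and 18 CPM and to 6.73, 8.97 and 5.4 CPM. Cdk4 made 97.6% to 99.5% of the summed Cdk4 and Cdk6 level per kilobase over the group means. It shares 19.7% of its exon length with Tspan31 on the opposite strand.

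**Figure D3:**
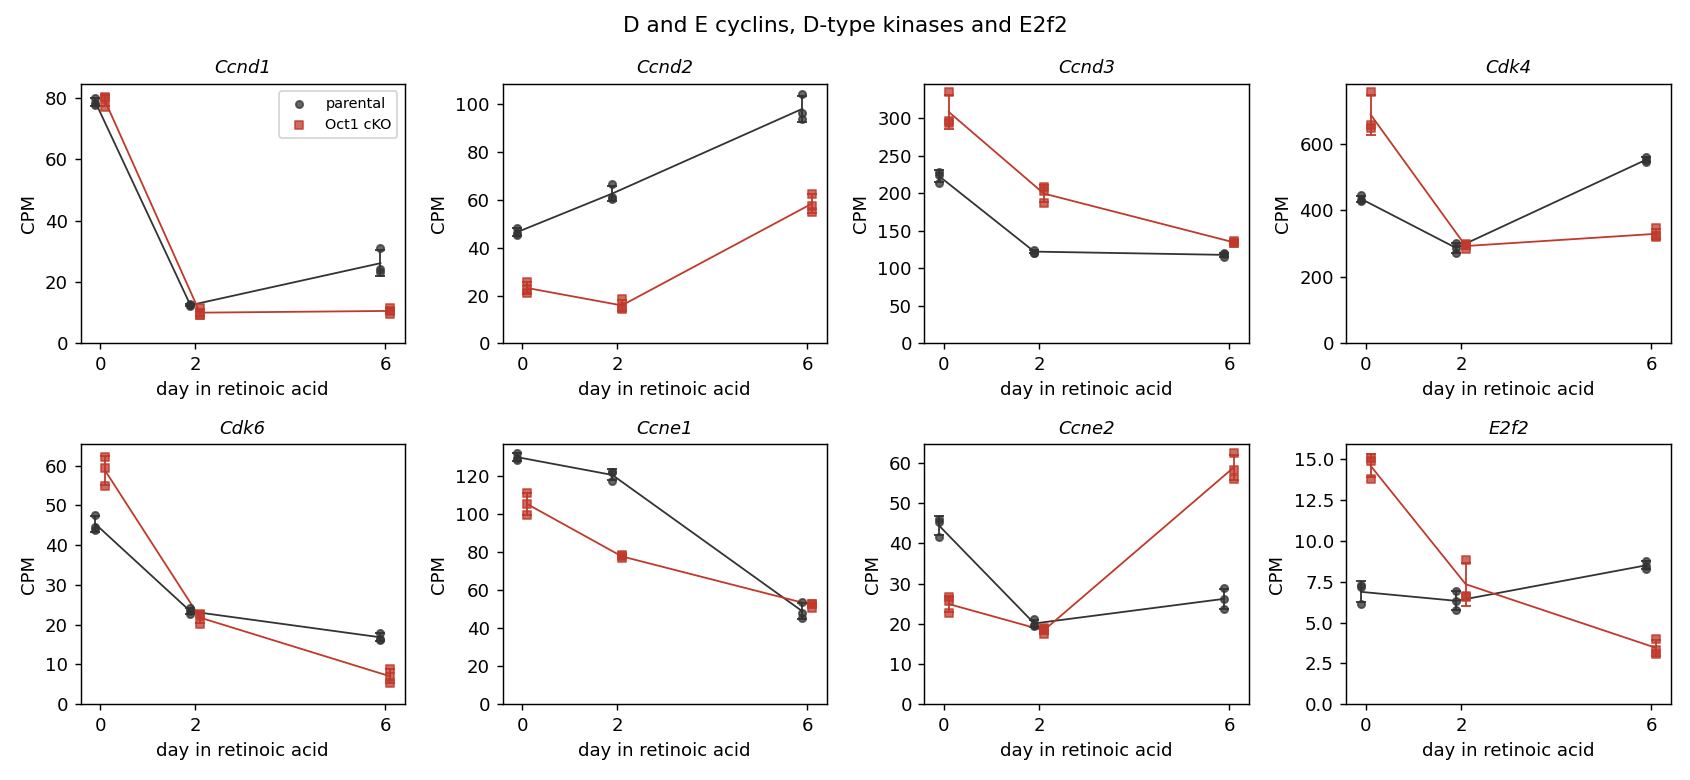
Points are CPM in each library against days in retinoic acid, circles for the parental line and squares for the cKO line, with lines through group means and bars of 1 SD (n = 3). Ccnd2 lies lower and Ccnd3 higher in the cKO line at each day, Ccne2 rises to 58.9 CPM on average in the cKO line at day 6, and Cdk4 is at 552 CPM in the parental and 329 CPM in the cKO line at day 6.

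At day 2 fewer mitotic than S phase genes were lower. In the parental line 3 of 11 were higher (Ccnb2, Aurkb and Mki67), 4 lower (Ccna2, Ccnb1, Aurka and Bub1) and 4 not called, with a median of -0.07 (all genes 43.2% higher and 37.7% lower, so the share lower was near that of all genes). In the cKO line 7 were higher and 1, Cdk1, lower, with a median of 0.38 (all genes 41% and 35.5%). With library sizes alone the parental line had 8 higher and 2 lower, and the cKO line 9 and 0. Over the same interval 21 of 22 S phase genes fell in each line, or 19 in each with library sizes alone. The change at day 2 was higher in the cKO line for 8 of 11 mitotic genes and lower for 0 by edgeR (all genes 30.1% and 26.9%; Cdk1, Mki67 and Cdc20 not called; 7 and 2 with library sizes alone). For the 22 S phase genes the same test gave 8 and 5 (6 and 10 with library sizes alone). The summed pluripotency markers were also higher in the cKO line at this day, at 2670 to 2810 against 1170 to 1230 CPM, and their part in the mitotic values was not tested.

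Cyclin A2 and cyclin B1, which drive S phase progression and mitotic entry with Cdk1, show the difference. Ccna2 in parental libraries was 291, 268 and 279 CPM at day 0, 243, 259 and 251 at day 2 and 160, 168 and 160 at day 6. Ccna2 in cKO libraries was 319, 307 and 310 CPM at day 0, 400, 408 and 414 at day 2 and 198, 197 and 197 at day 6. Ccna2 fell by -0.15 in the parental line at day 2, or rose by 0.18 with library sizes alone, and rose by 0.38 in the cKO line (difference 0.54 ± 0.06, adjusted p = 1.38e-09). Ccnb1 in parental libraries was 287, 283 and 297 CPM at day 0, 194, 204 and 190 at day 2 and 113, 108 and 107 at day 6. Ccnb1 in cKO libraries was 290, 292 and 295 CPM at day 0, 294, 283 and 291 at day 2 and 116, 116 and 118 at day 6. Ccnb1 fell by -0.56 ± 0.04 at day 2 in the parental line (adjusted p = 7.84e-15), whereas the cKO groups of days 0 and 2 overlapped (-0.02 ± 0.04). Between lines at day 2, Ccna2 was higher by 0.70 ± 0.04 (adjusted p = 6.51e-17) and Ccnb1 by 0.56 ± 0.04 (2.12e-14). Ccna2 shares 12.5% of its exon length with Exosc9 on the opposite strand, and Ccnb1 and Ccnb2 have 1 annotated pseudogene each under their own names.

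Bub1, a kinase of the spindle checkpoint, had the largest such difference. Bub1 in parental libraries was 266, 255 and 272 CPM at day 0, 216, 232 and 215 at day 2 and 107, 109 and 103 at day 6. Bub1 in cKO libraries was 211, 200 and 178 CPM at day 0, 293, 311 and 299 at day 2 and 160, 165 and 163 at day 6. The cKO libraries were below the parental ones at day 0 and above them at days 2 and 6, by -0.43 ± 0.05, 0.45 ± 0.05 and 0.61 ± 0.05 (adjusted p = 3.45e-09, 5.04e-10 and 2.06e-13). Its day 2 change was -0.26 in the parental line, or 0.08 with library sizes alone, and 0.62 in the cKO line (difference 0.88 ± 0.07, adjusted p = 2.58e-13). Aurka, a centrosome kinase, fell by -0.49 in the parental line and was not called in the cKO line (-0.04), a difference of 0.45 ± 0.07. Plk1, which acts from mitotic entry to exit, was not called in the parental line (-0.05) and rose by 0.27 in the cKO line, a difference of 0.32 ± 0.06.

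Top2a, the topoisomerase that untangles sister chromatids, rose at day 2 in the cKO line. Top2a in parental libraries was 1330, 1320 and 1340 CPM at day 0, 1350, 1370 and 1350 at day 2 and 788, 785 and 786 at day 6. Top2a in cKO libraries was 1080, 1070 and 963 CPM at day 0, 1540, 1490 and 1520 at day 2 and 484, 476 and 484 at day 6. The parental line was not called at day 2 (0.03 ± 0.04), the cKO line rose by 0.54 ± 0.04 (adjusted p = 4.56e-14), and the line difference was -0.36, 0.16 and -0.71 at days 0, 2 and 6, the day 2 value being -0.04 with library sizes alone. Cdc20, the mitotic activator of the anaphase-promoting complex, differed at day 0 already. Cdc20 in parental libraries was 204, 217 and 202 CPM at day 0, 194, 196 and 195 at day 2 and 128, 131 and 129 at day 6. Cdc20 in cKO libraries was 329, 307 and 366 CPM at day 0, 327, 301 and 306 at day 2 and 118, 112 and 115 at day 6. Its cKO libraries lay above all parental ones at days 0 and 2, by 0.68 ± 0.05 (adjusted p = 2.79e-14) and 0.67 ± 0.05 (1.43e-14), with no difference in the day 2 change called (-0.01 ± 0.07). By day 6 it fell by -0.68 in the parental and -1.54 in the cKO line (difference -0.85 ± 0.07, adjusted p = 4.45e-13).

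Aurkb, the kinase of the chromosomal passenger complex, rose at day 2 in both lines, by 0.38 and 0.75, and Ccnb2, cyclin B2, by 0.21 and 0.69. Mki67, the proliferation antigen Ki-67, rose by 0.56 ± 0.10 and 0.76 ± 0.10, with 502, 414 and 450 CPM in parental and 480, 524 and 462 CPM in cKO libraries at day 2, which overlap. By day 6, 10 of 11 mitotic genes were lower than at day 0 in the parental line (Mki67 not called, 0.06) and 11 of 11 in the cKO line. Of all genes, 40.2% and 40.4% were called lower, and the medians of the mitotic genes were -0.68 and -0.80. The call of Aurkb in the parental line (-0.10) was lost without each of the parental day 0 libraries (values -0.09 to -0.10) and turned to 0.06 with library sizes alone, and that of Mki67 in the cKO line (-0.29) without cKO day 0 replicate 1 (-0.23), cKO day 0 replicate 2 (-0.21) or cKO day 6 replicate 1 (-0.24). Cdk1, the mitotic kinase itself, was higher in the cKO line by 0.40, 0.35 and 0.37 at days 0, 2 and 6, with no difference called in its change between lines. Its cKO fall at day 2 (-0.12) was lost without cKO day 0 replicate 3 (-0.08) or cKO day 2 replicate 2 (-0.10), and was 0.04 with library sizes alone.

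Averaged per library as log2 of CPM over parental day 0, the 22 S phase genes stood at -0.89, -0.83 and -0.88 in the parental and -0.70, -0.75 and -0.72 in the cKO libraries at day 2, and at -1.26 ± 0.007 and -1.35 ± 0.032 at day 6 (SD, n = 3). The 11 mitotic genes stood at -0.05, -0.03 and -0.06 and at 0.40, 0.36 and 0.36 at day 2, with no overlap between lines, and at -0.73 ± 0.012 and -0.81 ± 0.001 at day 6. The 5 cyclin D kinase genes averaged -0.93 ± 0.023 and -1.26 ± 0.101 at day 2 and -0.51 ± 0.038 and -1.28 ± 0.108 at day 6. The 4 inhibitors averaged 0.62 ± 0.042 and 0.85 ± 0.078 at day 2 and 1.22 ± 0.050 and 1.27 ± 0.079 at day 6. These averages carry no test and depend on the scaling. With library sizes alone the median genotype difference of all genes at day 2 moved from -0.01 to -0.20. Over the alternatives the median genotype difference at day 2 ran from -0.01 to 0.20 for S phase genes and from 0.23 to 0.42 for mitotic genes.

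**Figure D4:**
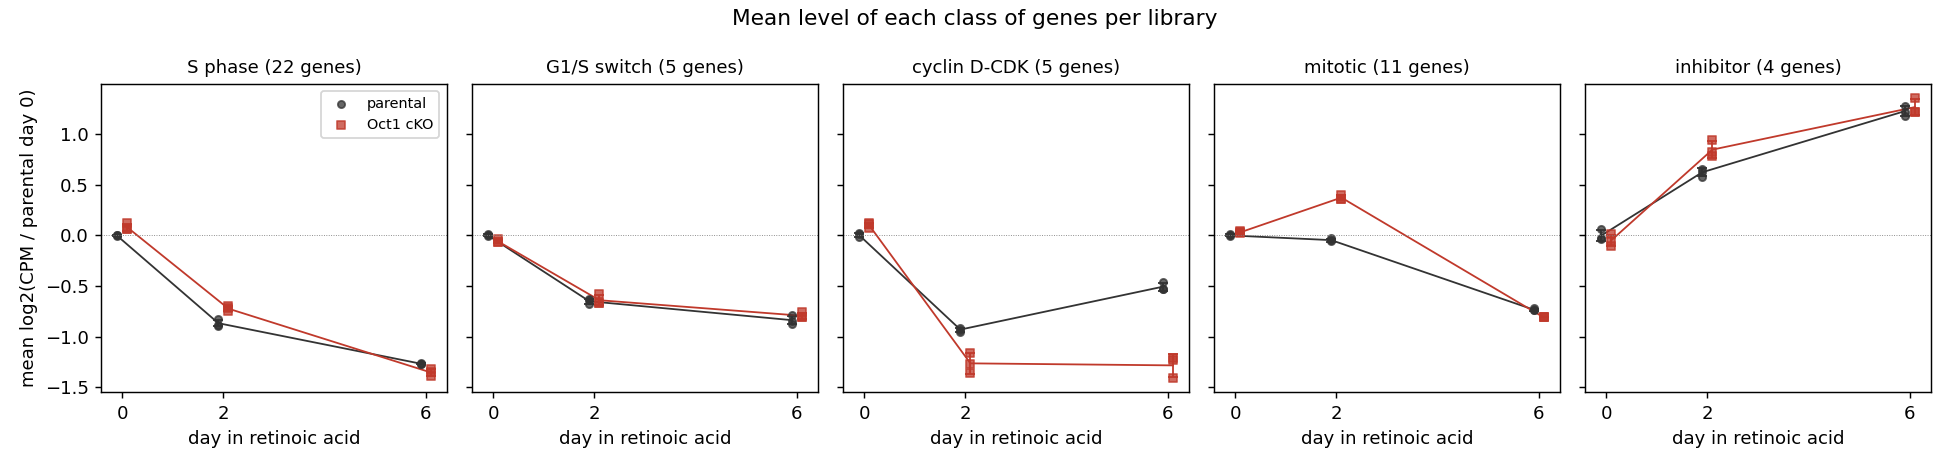
Each point is a library's mean over the genes of a class of log2(CPM over the parental day 0 mean), against days in retinoic acid, with group means joined by lines and bars of 1 SD (n = 3). At day 2 the mitotic mean is 0.37 in the cKO and -0.05 in the parental line, while the S phase mean is -0.72 and -0.87, and at day 6 the cyclin D kinase mean is -1.28 and -0.51.

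All 4 inhibitors were called higher at day 2 than at day 0 in both lines (all genes 43.2% in the parental and 41% in the cKO line), Cdkn2b in the cKO line only just. Cdkn1b encodes p27, which binds cyclin-CDK complexes. Cdkn1b in parental libraries was 20.3, 18.6 and 20.6 CPM at day 0, 30.6, 33.9 and 31.9 at day 2 and 62.8, 66.9 and 65.6 at day 6. Cdkn1b in cKO libraries was 31.7, 26.1 and 28.1 CPM at day 0, 87.3, 79.3 and 81.6 at day 2 and 83.3, 81 and 79.2 at day 6. Every cKO library exceeded the parental libraries of its day, and the cKO groups of days 2 and 6 overlapped. The rise by day 2 was 0.70 ± 0.07 in the parental and 1.53 ± 0.06 in the cKO line (difference 0.83 ± 0.10, adjusted p = 1.94e-09), and the line difference was 0.53, 1.37 ± 0.06 (adjusted p = 2.42e-21) and 0.32, the last not called with library sizes alone.

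Cdkn2a encodes p16Ink4a and p19Arf from separate starts, which gene counts cannot separate. Cdkn2a in parental libraries was 24.1, 25.6 and 22.8 CPM at day 0, 30.1, 31.5 and 31.5 at day 2 and 80.8, 70.6 and 70 at day 6. Cdkn2a in cKO libraries was 17, 18.6 and 22.9 CPM at day 0, 26.2, 21.7 and 26.3 at day 2 and 26.8, 24.1 and 26.1 at day 6. The parental libraries at day 6 stood above all others, at a rise of 1.61 ± 0.08 (adjusted p = 2.28e-20) against 0.39 ± 0.09 in the cKO line (difference -1.22 ± 0.12, adjusted p = 5.02e-11). At day 6 the cKO level was lower by -1.52 ± 0.08 (adjusted p = 1.56e-19). At day 0 the groups overlapped, and the call (-0.30) was lost without cKO day 0 replicate 1 (-0.21). The summed fibroblast markers were 4020 to 4320 CPM in parental and 494 to 595 CPM in cKO libraries at day 6. Col1a1, Col3a1 and Col1a2 made most of that parental sum (means 2040, 1140 and 693 CPM). From day 0 to day 6 in the parental line, 7 of the 10 fibroblast markers rose (all genes 45.3%). The 3 that fell were Thy1 (-3.89), S100a4 (-3.55) and Fbln2 (-1.27), against 40.2% of all genes. The part of fibroblasts in the Cdkn2a difference was not tested. Cdkn2b, the neighbour of Cdkn2a that encodes p15Ink4b, rose by 2.14 ± 0.13 in the parental and 1.74 ± 0.14 in the cKO line by day 6, to 22.3, 19.2 and 17.4 CPM and 19.8, 15.4 and 14.5 CPM, which overlap. Its day 2 rise in the cKO line (0.35, adjusted p = 0.0471) was lost without cKO day 0 replicate 1 (0.28), cKO day 0 replicate 2 (0.35) or cKO day 2 replicate 3 (0.19). That call was also lost with DESeq2 size factors (0.30), TMM without chromosome 11 (0.28), no filter on low counts (0.29), DESeq2 (0.31) and a fit of the groups compared (0.32).

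Rb1, the retinoblastoma gene, took opposite courses. Rb1 in parental libraries was 33.7, 30.6 and 32.4 CPM at day 0, 48.5, 50.2 and 48 at day 2 and 21, 22.3 and 22.6 at day 6. Rb1 in cKO libraries was 24.6, 21.7 and 20.3 CPM at day 0, 52.3, 61.7 and 55.6 at day 2 and 67.1, 68.2 and 67.4 at day 6. It rose in both lines at day 2, by 0.60 and 1.35, and by day 6 all parental libraries were below and all cKO libraries above those of day 0 (-0.55 ± 0.07 and 1.61 ± 0.07, difference 2.16 ± 0.10, adjusted p = 5.07e-21). The line difference was -0.54 ± 0.07 at day 0 and 1.62 ± 0.07 at day 6 (adjusted p = 2.44e-23). At day 2 it was 0.21, a call lost without cKO day 2 replicate 2 (0.14) or with library sizes alone (0.02). Rb1 was the gene of the 47 with the largest genotype difference at day 6 by size, followed by Cdkn2a.

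**Figure D5:**
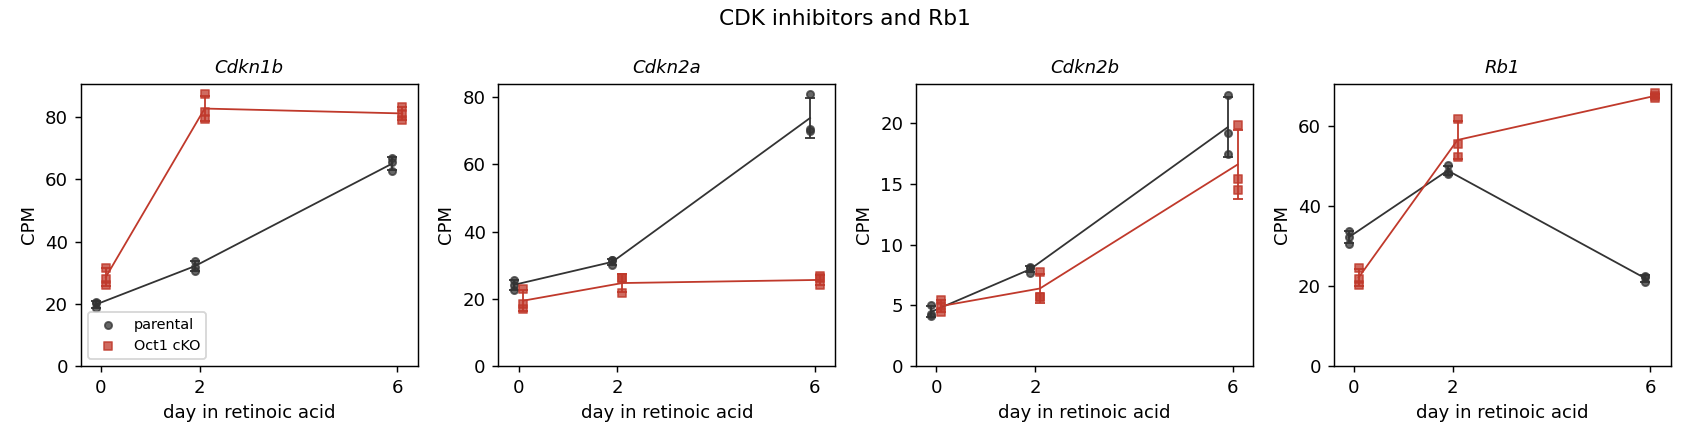
Points are CPM in each library against days in retinoic acid, circles for the parental and squares for the cKO line, with group means joined by lines and bars of 1 SD (n = 3). Cdkn1b is higher in the cKO line and reaches 82.8 CPM at day 2, Cdkn2a reaches 73.8 CPM in the parental and 25.7 CPM in the cKO line at day 6, and Rb1 ends at 22 and 67.6 CPM.

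Another 100 genes of the pathway, listed by function, gave the wider setting. At day 2, 33 of 38 other S phase genes were lower in the parental line and 25 in the cKO line (medians -0.52 and -0.50), and 5 and 8 were higher. Of all genes, 37.7% were lower and 43.2% higher in the parental line at that day, and 35.5% and 41% in the cKO line. Of 32 other mitotic genes, 10 were higher and 13 lower in the parental line (median -0.07), and 22 higher and 4 lower in the cKO line (median 0.32). Between lines at day 2, 28 of the 32 were higher in the cKO line and 1 lower, with a median of 0.52 (all genes 33.7% and 33.6%), and 22 of 32 had a higher day 2 change there (all genes 30.1%). By day 6, 27 of 32 were lower in the parental and 29 in the cKO line (all genes 40.2% and 40.4%). These lists were written by the same reasoning as the 47 genes and are not an independent sample.

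Of these 100, the genes named here were called, had groups apart and averaged at least 2 CPM over all libraries. By size of the genotype difference at day 0, Ccnf, Fzr1, Ube2c and Cdc25b were then the most raised in the cKO line (0.67 to 0.55). Mycn, Hmmr, Pttg1 and Pold2 were the most lowered within the same limits (-0.70 to -0.58). Outside these limits, differences among the 100 reached -2.25 at day 0, -1.59 at day 2 and 1.84 at day 6. Hmmr, Pttg1 and Pold2 lie on chromosome 11. At day 2 Mybl2, the B-Myb factor of mitotic gene transcription, was higher by 1.19 ± 0.05 (93.1 against 213 CPM, adjusted p = 9.36e-23), with the checkpoint kinase Chek1 (1.07), Mycn (1.05) and the pocket protein Rbl2 (1.02). E2f3, another activating E2F, was lower by -1.45 ± 0.06 (57.6 against 21 CPM), with Fen1 (-0.77), Fbxw7 (-0.71) and Chaf1a (-0.68). At day 6 Mybl2 was higher by 2.37 ± 0.05 (40.6 against 210 CPM, adjusted p = 4.43e-32) and Cdkn1c, which encodes the inhibitor p57, by 2.26 ± 0.06 (59.1 against 284 CPM), followed by E2f8 (1.38) and Nek2 (0.82). Cdkn2c, the gene of the inhibitor p18, was lower by -1.85 ± 0.17 at low levels (7.35 against 2.03 CPM), with Pold2 (-1.59), Rbl2 (-1.52) and Bora (-1.05).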

How the data were processed

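The authors deposited whole-number read counts per gene, not normalized, for 18 bulk RNA-seq libraries of mouse ESCs. Per the submitters' processing notes, Novoalign, the builds mm10 and GRCm38 and DESeq2 1.10.0 were used, with no role or order. No source used here names the counter, annotation or strand setting. Libraries were grouped by the line and day in their labels (6 groups of 3). Separate cultures are not stated for replicate libraries, so p-values measure the spread between libraries, which may be technical.

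Genes were kept by filterByExpr of edgeR 4.0.16 (minimum count 10, minimum total 15; 18352 genes) and fitted with glmQLFit and glmQLFTest in R 4.3.3, with TMM factors and all 18 libraries in 1 fit, for 9 comparisons. Adjusted p is Benjamini-Hochberg over all genes tested, called under 0.05. The standard error (SE) comes from the quasi-likelihood F statistic. Levels are CPM on TMM-scaled library sizes, and levels per kilobase use the union of exons of GENCODE M21. Shares and ratios between genes per kilobase therefore depend on annotated exon length. The script was tested on simulated counts. Replicate pairs were compared by chi-square, and no pair fell within sampling noise.

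The 47 genes, their roles and the other lists were chosen with earlier results of these data known. All 47 could be named; of 100 other pathway genes, the 4 with the largest called increase and decrease per genotype comparison were named where groups did not overlap and the mean was at least 2 CPM. Alternatives were DESeq2 size factors, library sizes alone, TMM without chromosome 11, no filter, DESeq2 1.42.0, a fit restricted to the groups compared, a 2-fold minimum and leaving out each library. Protein sequences were not used here.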

Additional observations from a re-analysis of the deposited data

Results flagged for a closer look

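The change from day 0 differed between the lines, by edgeR's test of the difference itself (the cKO change minus the parental change, log2), for 33 of the 47 genes at day 2, where 57% of all genes were called, and for 36 at day 6, where 63.9% were. Both tests use the same day 0 libraries.

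At day 2 the change was higher in the cKO line for 22 genes (all genes 30.1%). They were the licensing genes Orc2 (0.37), Orc6 (0.50), Cdt1 (0.27), Mcm2 (0.33), Mcm3 (0.24), Mcm4 (0.36) and Mcm6 (0.39), with Cdc45 (0.68), and the switch genes Ccne2 (0.70), Cdk2 (0.46) and E2f1 (0.40). Ccnd3 (0.24) was the D cyclin among them. The mitotic genes were Ccna2 (0.54), Ccnb1 (0.54), Ccnb2 (0.47), Plk1 (0.32), Aurka (0.45), Aurkb (0.37), Bub1 (0.88) and Top2a (0.52), and the inhibitors Cdkn1b (0.83) and Rb1 (0.75). It was lower for 11 genes (all genes 26.9%): Gins3 (-0.55), Gins4 (-0.21), Pcna (-0.27), Pola1 (-0.28), Tyms (-0.31), Ccne1 (-0.33), E2f2 (-0.86), Ccnd1 (-0.33), Ccnd2 (-0.97), Cdk4 (-0.63) and Cdk6 (-0.47). The call of Gins4 was lost without cKO day 0 replicate 3 (-0.17), cKO day 2 replicates 2 (-0.15) or 3 (-0.19), or parental day 0 replicates 2 (-0.20) or 3 (-0.17). That of Ccnd1 was lost without cKO day 2 replicate 1 (-0.30) or 2 (-0.28).

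At day 6 the change was higher in the cKO line for 12 genes (all genes 32%): Orc1 (1.22), Orc6 (0.78), Cdc6 (0.67), Cdc45 (0.21), Gins4 (0.23), Rrm2 (0.33), Ccne1 (0.40), Ccne2 (2.0), E2f1 (0.37), Ccnd2 (0.26), Bub1 (1.04) and Rb1 (2.16). It was lower for 24 (all genes 31.9%). Replication genes among them were Mcm3 (-0.26), Mcm4 (-0.41), Mcm6 (-0.47), Mcm7 (-0.39), Gins1 (-0.56), Gins2 (-0.56), Gins3 (-0.72), Pcna (-0.34), Pola1 (-1.54), Prim1 (-0.68), Rrm1 (-0.29) and Tyms (-1.01). The others were E2f2 (-2.38), Ccnd1 (-1.31), Ccnd3 (-0.28), Cdk4 (-1.41), Cdk6 (-1.62), Ccnb2 (-0.54), Aurkb (-0.29), Top2a (-0.35), Mki67 (-0.35), Cdc20 (-0.85), Cdkn1b (-0.21) and Cdkn2a (-1.22).

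Several small day 6 differences lay near the threshold and lost their call when 1 library was left out, most with little change in value. The call of Ccnd2 was lost without cKO day 0 replicate 3 (0.17), cKO day 6 replicate 1 (0.19) or parental day 0 replicate 3 (0.24). That of Cdc45 was lost without cKO day 0 replicate 2 (0.18), cKO day 6 replicate 1 (0.12), parental day 0 replicate 2 (0.17) or parental day 6 replicate 1 (0.19). Gins4 was not called without cKO day 0 replicate 2 (0.19), cKO day 6 replicates 1 (0.18) or 3 (0.21), parental day 0 replicate 1 (0.18), or parental day 6 replicates 1 (0.21) or 3 (0.21). Cdkn1b was not called without cKO day 0 replicate 1 (-0.14), cKO day 6 replicates 2 (-0.20) or 3 (-0.22), parental day 0 replicates 1 (-0.23) or 2 (-0.19), or parental day 6 replicates 2 (-0.18) or 3 (-0.20), nor with DESeq2 size factors, no filter on low counts or DESeq2 (-0.18 in each). Mki67 was not called without any of cKO day 0 replicates 1 (-0.29) or 2 (-0.27), cKO day 6 replicates 1 (-0.31) or 2 (-0.36), parental day 0 replicates 1 (-0.37), 2 (-0.36) or 3 (-0.35), or parental day 6 replicates 1 (-0.34), 2 (-0.36) or 3 (-0.33), nor with DESeq2 size factors or no filter on low counts (-0.32 in each).

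With library sizes alone as scaling, the calls of Cdt1 (0.09), Mcm3 (0.07), Ccnd3 (0.06) and Plk1 (0.14) at day 2 and of Cdc45 (0.02), Gins4 (0.03), E2f1 (0.18) and Ccnd2 (0.07) at day 6 were lost.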

How the results depend on the processing

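Of 423 values (47 genes in 9 comparisons), 355 were called, and 105 lost or gained a call, or changed sign with a call on either side, under some alternative. The 21 such changes of sign all came with library sizes alone as scaling, while values called on neither side crossed 0 under other alternatives too. In the cKO line against the parental line they were Orc1 (-0.06), Mcm7 (-0.02), Prim1 (-0.17), Cdk4 (-0.16) and Top2a (-0.04) at day 2, and Orc2 (-0.04), Ccnd3 (-0.01) and Ccnb1 (-0.11) at day 6. From day 0 to day 2 in the parental line they were Gins2 (0.06), Rrm1 (0.15), Ccne1 (0.23), Cdk1 (0.26), Ccna2 (0.18), Plk1 (0.29), Bub1 (0.08) and Cdc20 (0.25), and in the cKO line Cdk1 (0.04), Ccnb1 (0.14) and Aurka (0.12). Aurkb was 0.06 at day 6 in the parental line, and Mcm5 -0.14 in the genotype by day difference at day 2. That scaling also gave 18 members lower at day 2 and 7 higher at day 6 between lines, 16 higher from day 0 to 2 in the parental line and 19 lower in the day 2 genotype by day difference. It moved the median of all genes to 0.42, 0.23 and 0.24 for the parental day 2, parental day 6 and cKO day 2 changes. Over all genes it gave 10130 higher and 4589 lower calls for the parental day 2 change (68.8% higher, against 53.4%), 4094 and 6317 for the genotype by day difference at day 2 (39.3% against 52.8%) and 4801 and 7145 at day 6 (40.2% against 50.1%).

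Asking for a fold of at least 2 as well left 1 higher and 1 lower gene of the 47 between lines at day 0 (2333 of all genes called), 1 and 1 at day 2 (3759) and 3 and 5 at day 6 (6599). Within the parental line it left 0 and 12 at day 2 (7308) and 4 and 23 at day 6 (9527), within the cKO line 2 and 12 at day 2 (7295) and 5 and 28 at day 6 (9309), and for genotype by day 0 and 0 at day 2 (4208) and 4 and 7 at day 6 (6303).

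Leaving out 1 library at a time gave, between lines, 18 to 21 higher and 11 to 15 lower at day 0, 25 to 27 and 6 to 9 at day 2, and 17 to 19 and 20 to 24 at day 6. At day 2 the lower count fell to 6 without cKO day 2 replicate 2. Small day 0 differences lost their call without 1 library: Mcm3, Mcm4, Pcna, Prim1, Tyms, Plk1 and Aurka, all within 0.16 log2, and Cdkn2a. No paired analysis was possible because the labels carry no replicate numbers, and the numbers used here only name the libraries of a group. Depth limits E2f2, Cdkn2b and Cdk6 most, the members with the fewest counts in any group.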
